A study of Mus musculus with 4 samples.

Results

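The nuclear genes for the subunits of the respiratory chain and ATP synthase were followed in RNA-seq of LSK cells, the lineage-negative, Sca1+, c-Kit+ bone marrow population that holds the hematopoietic stem cells. Members were chosen by gene symbol alone. Of the 92 symbols that begin like a subunit gene, 8 assembly factors (Ndufaf) and 3 pseudogenes were left out, and all 81 that remained had a mean of at least 10 normalized counts and were tested. They are 81 of the 18598 genes listed and of the 14858 tested, namely 36 genes of complex I, 4 of complex II, 8 of complex III, 16 of complex IV, 16 of ATP synthase (complex V) and Atp5sl, whose product helps to assemble complex I despite its name.

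The study compared LSK cells sorted from Bptf-cKO mice with those of control mice. Bptf is the largest subunit of the NURF chromatin remodeler. The Bptf-cKO mice carried floxed Bptf alleles (Bptf f/f) and Mx1-cre, and the control mice of the RNA-seq comparison are given by the study as Bptf f/f without cre. Mice of both groups were C57BL/6, about 3 months old and treated with pIpC, an interferon inducer that switches on Mx1-cre, and cells were taken 10 days after cre induction. Mx1-cre is active beyond blood stem cells and only the Bptf-cKO group carried it, so an effect of the recombinase and an effect of Bptf loss cannot be told apart. Each group had 2 libraries, each made from the pooled marrow of 5 mice. With 2 libraries a group, p-values measure the spread between pools.

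Complexes I to IV pass electrons from NADH and succinate to oxygen in the inner mitochondrial membrane and pump protons as they do so, except complex II, which only feeds electrons in. ATP synthase lets the protons flow back and makes ATP. A few of the subunits are encoded in mitochondrial DNA and the rest in the nucleus, and several complex IV subunits exist in a ubiquitous form and in a form made mainly in one tissue, such as muscle, lung or testis. Quiescent hematopoietic stem cells are known for relying little on oxidative phosphorylation.

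The libraries held 24875746 and 14091054 reads on listed genes in the control libraries, and 30134742 and 14104526 in those of Bptf-cKO, replicate 1 first. Bptf itself fell from 5685 ± 233 to 3359 ± 55.5 normalized counts (SD, n = 2 libraries; log2 difference −0.76, SE 0.0898, limma adjusted p = 0.0439). That call was lost in edgeR (adjusted p = 0.0531), after recentring on library medians (0.0547), without the mean-variance trend (0.178) and without any 1 of the libraries (limma adjusted p from 0.0647 to 0.316). The value covers the whole gene and not only the deleted exon. All 5 LSK markers were listed, with summed normalized counts of 45464 and 36071 in control and 37069 and 33420 in Bptf-cKO. Kit, Ly6a and Cd34 had log2 differences of −0.01, 0.09 and −0.21, and Flt3 and Slamf1 of −0.76 and −0.80. Slamf1 had 315 and 554 normalized counts in control and 207 and 278 in Bptf-cKO. It was the 1 LSK marker below both controls, beside 23.8% of all genes. No LSK marker passed the test (limma adjusted p of 0.32 or more). Xist stood at 0.775 and 3.25 in the replicate 1 libraries but at 15675 and 11843 in the replicate 2 libraries, so the sex makeup of the pools followed the replicate number and not the genotype. Summed markers of myeloid cells ranged from 11808 to 62872 and of B cells from 1373 to 5094, with the lowest and the highest value of each in the control group. Of the 7 erythroid markers tested, 6 were below both controls in both Bptf-cKO libraries, where 23.8% of all genes were. Of the 7, 1, Epor, was called lower (limma adjusted p = 0.0443). In bulk libraries, fewer cells of a type and less RNA per cell cannot be told apart.

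A single member, Cox6a2, passed the test across all genes, in which 0.74% of genes were called (0.37% higher and 0.37% lower in Bptf-cKO). Here "called" means a limma adjusted p under 0.05 over the 14858 genes, in a fit on genotype alone. With the replicate number added as a block, 14.4% of genes and 7 members were called. Cox6a2 encodes the heart and skeletal muscle form of subunit VIa of cytochrome c oxidase (complex IV), and Cox6a1 encodes the ubiquitous form. Cox6a2 rose 83.1-fold in Bptf-cKO LSK cells. Its coding sequence and that of Cox6a1 are shown because the comparison rests on telling reads of the 2 genes apart. Both are from GENCODE vM21 on GRCm38, 5′ to 3′, with all 294 bases of the Cox6a2 frame and bases 40 to 339 of the Cox6a1 frame, and capitals mark the bases that differ from the other gene in the alignment or face a gap.
Cox6a2: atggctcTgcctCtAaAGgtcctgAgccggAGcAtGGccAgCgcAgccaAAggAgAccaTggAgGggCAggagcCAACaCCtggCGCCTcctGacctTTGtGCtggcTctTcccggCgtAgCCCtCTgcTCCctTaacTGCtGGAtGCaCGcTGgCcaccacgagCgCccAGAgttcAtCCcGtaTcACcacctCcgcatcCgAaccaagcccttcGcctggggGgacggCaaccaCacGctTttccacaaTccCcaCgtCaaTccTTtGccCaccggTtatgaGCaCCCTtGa
Cox6a1: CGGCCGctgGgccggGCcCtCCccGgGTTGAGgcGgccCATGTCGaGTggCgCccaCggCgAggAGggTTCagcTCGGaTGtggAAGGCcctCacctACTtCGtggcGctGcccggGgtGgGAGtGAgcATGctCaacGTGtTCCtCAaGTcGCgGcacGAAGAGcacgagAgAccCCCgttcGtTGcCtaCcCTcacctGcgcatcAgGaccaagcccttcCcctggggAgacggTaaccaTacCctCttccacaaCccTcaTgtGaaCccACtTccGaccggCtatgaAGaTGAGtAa
The Cox6a2 frame of 294 bases and the Cox6a1 frame of 339 bases were identical at 190 of 294 aligned positions (64.6%), and no identical run was longer than 12 bases. The longest run shared by the whole transcripts was also 12 bases.

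Cox6a2 (ENSMUSG00000030785.8, chr7:128205435-128206387, minus strand, GRCm38) had 37.2 and 11.1 normalized counts in the control libraries. It had 2197 and 1817 in the Bptf-cKO libraries, backed by 3380 and 1288 reads against 48 and 8 in control. The groups were far apart, and the spread within each was small against the gap between them (24.1 ± 18.5 against 2007 ± 268, SD, n = 2). The log2 difference was 6.54 (SE 0.547, limma adjusted p = 0.0222), rank 3 among the rises of all genes tested. In edgeR, which called 0.633% of genes, it was the member called too (adjusted p = 0.0229). Without Bptf-cKO replicate 1 the log2 difference was 6.40 with an adjusted p of 0.12, and without Bptf-cKO replicate 2 it was 6.68 with an adjusted p of 0.154, so that the size held and the limma call did not. Without the mean-variance trend the limma adjusted p was 0.119. Leaving out control replicate 1 or 2 gave 7.37 and 5.71, with limma adjusted p of 0.00186 and 0.00483.

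Per kilobase of exon, Cox6a2 went from 54.7 and 16.3 normalized counts in control to 3230 and 2672 in Bptf-cKO. By this level it was the 80th of the 81 members in control and the 7th in Bptf-cKO, and within complex IV it went from the 16th to the 5th of 16 genes. Cox6a1 (chr5:115345642-115348981, minus strand) had 2267 and 2191 normalized counts in control and 2477 and 2459 in Bptf-cKO, a log2 difference of 0.15 (limma adjusted p = 0.51). Of the summed level of the pair per kilobase, Cox6a2 made up 1.67% and 0.52% in control and 47.8% and 43.3% in Bptf-cKO. The log2 ratio of Cox6a2 to Cox6a1 differed by 6.39 between the groups, which did not overlap (exact two-sided permutation p = 0.33, the smallest that 2 against 2 libraries can give).

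**Figure D1:**
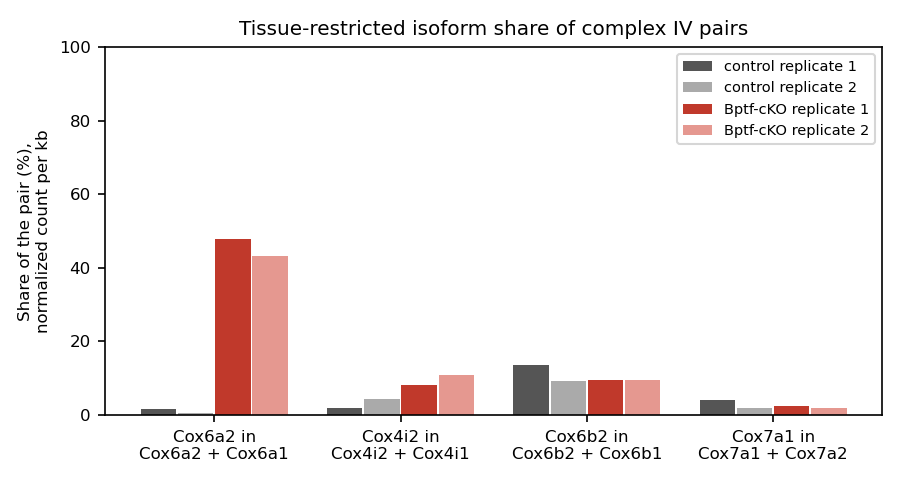
Share of the tissue-restricted isoform in the summed level per kilobase of itself and its ubiquitous counterpart, in percent, for each library of each genotype. Cox6a2 stood at 0.52% to 1.67% in control and 43.3% to 47.8% in Bptf-cKO, Cox4i2 reached 10.8% at most, and the shares of Cox6b2 and Cox7a1 overlapped between the groups.

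Genes around Cox6a2 were examined because an exon of Itgad lies over it on the opposite strand, and whether counting used strand is not given in the sources used here. Itgad, an integrin alpha subunit gene, had 21 and 14 reads in control and 47 and 24 in Bptf-cKO (log2 difference 0.82, limma adjusted p = 0.424). Whether reads from the overlap entered or left either count was not tested. The noncoding 4931431B13Rik (chr7:128192050-128203328), which lies 2107 bp past the 3′ end of Cox6a2 on the same strand, had 0 reads in both control libraries and 61 and 12 in Bptf-cKO (limma adjusted p = 0.0855). It reached the mean of 10 normalized counts needed for the test only through the Bptf-cKO libraries (39.6 and 16.9). Within 50000 bp, 9130023H24Rik had a log2 difference of 0.23, Armc5 of −0.19 and Tgfb1i1 of −0.06, with limma adjusted p of 0.716, 0.581 and 0.976. Markers of striated muscle were not higher in Bptf-cKO as a group. Of 10 striated muscle genes, 6 were listed, with summed normalized counts of 266 and 231 in control and 162 and 162 in Bptf-cKO. All 3 of those tested were below both controls, where 23.8% of all genes were, and none of the 3 was called. Acta1, the skeletal muscle actin, had 3.88 and 0 in control and 5.85 and 4.23 in Bptf-cKO, and Ckm, muscle creatine kinase, had 3.88 and 0 against 3.90 and 5.64.

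Cox4i2 encodes the form of subunit IV known from lung and from hypoxic cells (chr2:152754173-152765037, plus strand). It had 43.4 and 105 normalized counts in control and 215 and 308 in Bptf-cKO, so that both Bptf-cKO libraries lay above both controls. The mean was 3.51-fold higher, but the log2 difference of 1.91 (SE 0.468) did not pass the test (limma adjusted p = 0.158). It was 1.28 without control replicate 1 and 2.54 without control replicate 2, and neither passed in limma (adjusted p of 0.175 and 0.0793). DESeq2, which called 5.85% of genes, called Cox4i2 higher (adjusted p = 0.0076). The ubiquitous Cox4i1 had 4300 and 4441 in control and 4731 and 4981 in Bptf-cKO (log2 difference 0.15, limma adjusted p = 0.489). Cox4i2 made up 1.95% and 4.46% of the pair per kilobase in control and 8.21% and 10.8% in Bptf-cKO, and the log2 ratio differed by 1.76 (exact permutation p = 0.33), or by 1.15 to 2.37 when 1 library was left out, lowest without control replicate 1 and highest without control replicate 2. The coding sequences of this pair were 69.2% identical, with no shared run over 14 bases. The neighbours of Cox4i2 within 50000 bp, H13, Id1 and Bcl2l1, had log2 differences of 0.09, 0.38 and 0.28, and none passed the test.

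The other tissue-restricted complex IV genes had lower means in Bptf-cKO, and neither passed the test. Cox6b2, the testis form of subunit VIb, had 586 and 464 normalized counts in control and 420 and 463 in Bptf-cKO (log2 difference −0.24, limma adjusted p = 0.571), so that the higher Bptf-cKO library was just under the lower control. Its share of the level of the pair with Cox6b1 was 13.5% and 9.2% in control and 9.51% and 9.62% in Bptf-cKO. Cox7a1, the heart and muscle form of subunit VIIa, had 28.7 and 19.4 in control and 21.4 and 22.6 in Bptf-cKO, so the groups overlapped (log2 difference −0.10). Against their ubiquitous counterparts the log2 ratios differed by −0.25 for Cox6b2 and −0.32 for Cox7a1 (exact permutation p = 1.0 for each). The muscle forms Cox6a2 and Cox7a1 thus had different values in the same libraries, 6.54 and −0.10. Cox7b2, Cox8b, Cox8c and Ndufa4l2 were not among the genes listed, so they could not be compared.

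**Figure D2:**
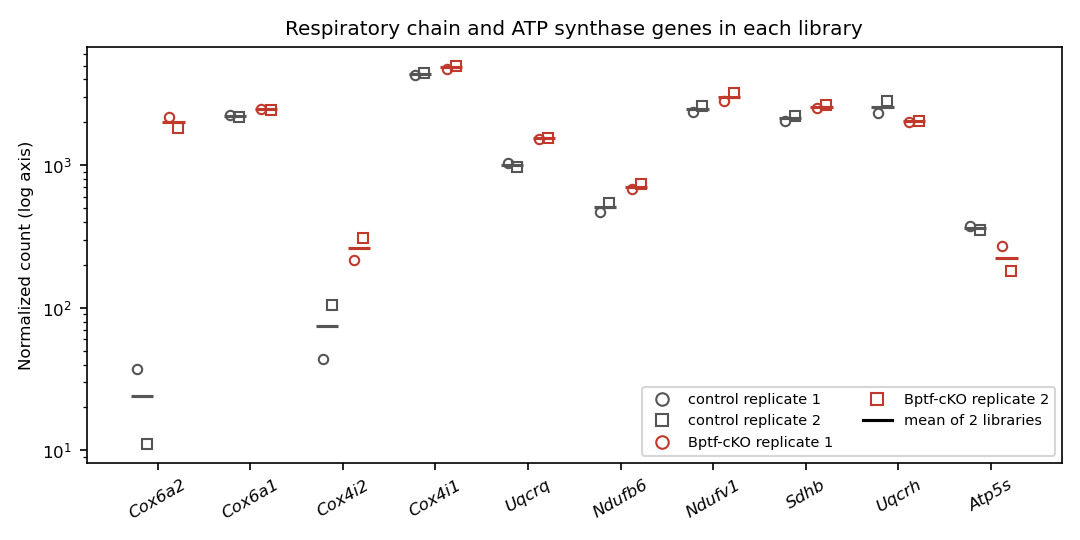
Normalized counts in each library (log axis) for members named in the text, with control libraries in grey, Bptf-cKO libraries in red and a line at the mean of each group. Cox6a2 is the gene with the widest gap between the groups, with 11.1 to 37.2 in control and 1817 to 2197 in Bptf-cKO.

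Across the 81 members the differences were small. The median log2 difference was 0.089 beside 0.0010 over all genes tested, and the quartiles of the members lay at −0.04 and 0.20, against −0.24 and 0.19 for all genes. The log2 difference was above 0 for 56 members and below 0 for 25, that is 69.1% above 0 beside 50.2% of all genes. In 26 members (32.1%) both Bptf-cKO libraries lay above both controls, where 23.2% of all genes did so. In 7 members (8.64%) both lay below, where 23.8% of all genes did so, and 48 members overlapped. An unadjusted limma p under 0.05 was found for 9 members, beside 15.7% of all genes. These counts rest in part on 1 library. The median deviation of the members from their mean over the libraries was −0.11 in control replicate 1 and 0.04 in control replicate 2, and −0.01 and 0.08 in the Bptf-cKO libraries, so replicate 1 was the lower library in each group. The replicate 1 libraries were also the deeper ones and those low in Xist, and control replicate 1 had the highest myeloid and B cell marker sums. The part of these in the members' values was not tested. Without control replicate 1, 38.3% of the members and 38.3% of all genes lay above the remaining control, and 29.6% and 37.9% lay below it. Then 42 members were above 0 and 39 below, with a median of 0.0057, and without control replicate 2 the numbers were 64 and 17, with a median of 0.16. Together the members took 0.858% and 0.954% of the normalized counts in control and 0.909% and 0.955% in Bptf-cKO, and these shares overlapped.

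**Figure D3:**
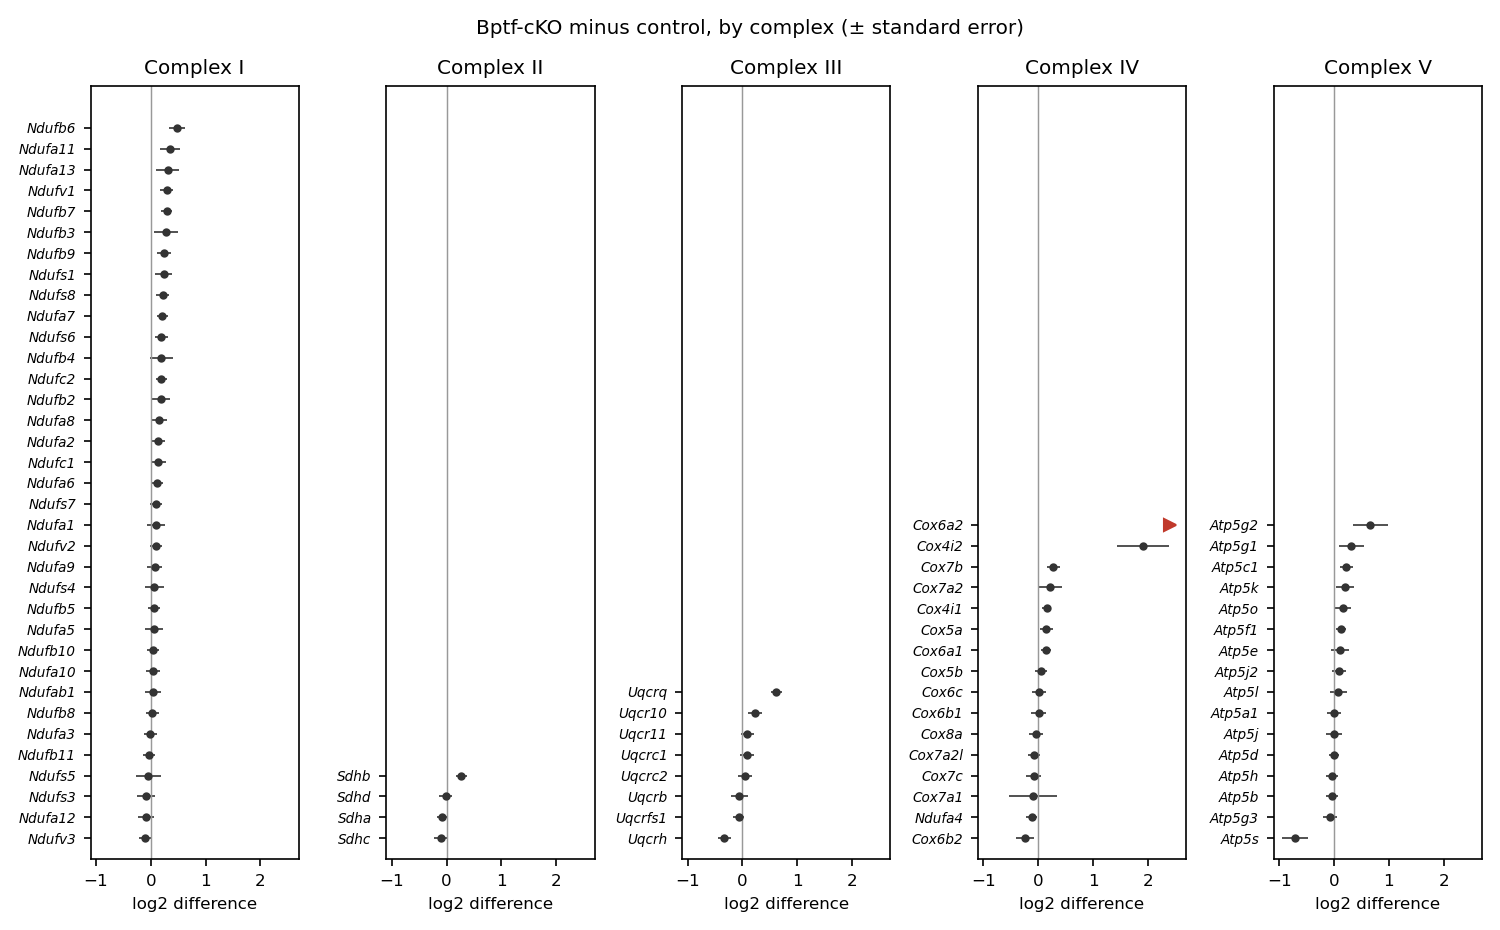
Log2 difference (Bptf-cKO minus control, values taken as log2(normalized count + 1)) with its standard error for the members of complexes I to V, all but 1 of them drawn, with 0 marked and called genes in red. Most complex I points lie above 0, and Cox6a2, at 6.54, is drawn as an arrowhead at the edge because it lies beyond the axis.

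Complex I takes electrons from NADH and passes them to ubiquinone. Of its 36 genes, 30 had a log2 difference above 0 and 6 below, and none passed the test. Above both controls lay 14 (38.9%, beside 23.2% of all genes), and 1 (2.78%, beside 23.8%) lay below. The median was 0.12. It was 0.05 without control replicate 1, 0.06 without Bptf-cKO replicate 2 and 0.20 without control replicate 2, and the number above 0 was then 23, 26 and 32. Summed normalized counts were 40771 and 45477 in control and 45371 and 49171 in Bptf-cKO, so that the groups overlapped.

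The core subunits of complex I hold its flavin and iron-sulfur clusters. Of 7 nuclear core genes, 6 were above 0. Ndufv1, the NADH-binding flavoprotein, had 2372 and 2588 normalized counts in control and 2833 and 3234 in Bptf-cKO (log2 difference 0.29, SE 0.113, limma adjusted p = 0.311). Ndufs8 lay above both controls too (0.22), and Ndufs1, Ndufs7 and Ndufv2, with log2 differences of 0.23, 0.10 and 0.09, overlapped. Ndufs3 was the core gene below 0, with 851 and 1121 in control and 901 and 937 in Bptf-cKO (−0.09).

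Among the accessory subunits, which surround the core and stabilise it, Ndufb6 had the highest difference. It had 473 and 547 normalized counts in control and 682 and 734 in Bptf-cKO (log2 difference 0.48, SE 0.141, limma adjusted p = 0.218). Ndufa11, a membrane subunit, followed with 651 and 754 in control and 763 and 1044 in Bptf-cKO (0.35, limma adjusted p = 0.455). Ndufb7 had 1218 and 1340 against 1543 and 1577 (0.29, limma adjusted p = 0.292). At the low end, Ndufv3 had 1173 and 1242 in control and 1100 and 1140 in Bptf-cKO (−0.11), and Ndufa12 had 633 and 683 against 675 and 564 (−0.09). Ndufv3 was thus the complex I gene whose Bptf-cKO libraries both lay below control.

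Complex II, succinate dehydrogenase, also belongs to the citrate cycle. Sdhb, its iron-sulfur subunit, had 2053 and 2218 normalized counts in control and 2508 and 2640 in Bptf-cKO, and was the complex II gene with groups that did not overlap (log2 difference 0.27, SE 0.0986, limma adjusted p = 0.287). Sdha, the flavoprotein that oxidises succinate, had 7585 and 8422 in control and 7451 and 7681 in Bptf-cKO (−0.08). The membrane anchors Sdhc and Sdhd had log2 differences of −0.11 and −0.02, and Sdhd was above 0 (0.03) after recentring on library medians. None of the 4 passed the test.

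Complex III passes electrons from ubiquinol to cytochrome c. The log2 differences of its 8 genes among the members ran from −0.33 to 0.62, and none passed the test. Cyc1, its cytochrome c1 gene, is not a member by symbol and is counted with the electron carriers below. Uqcrq, a small subunit at the ubiquinone-binding side (chr11:53427922-53430831, minus strand), had 1037 and 976 normalized counts in control and 1536 and 1552 in Bptf-cKO. The groups were clearly apart and the mean 1.53-fold higher, but the log2 difference of 0.62 (SE 0.103) missed the threshold (limma adjusted p = 0.0819). DESeq2 called Uqcrq higher (adjusted p = 0.00133). Gdf9, which starts 192 bp from Uqcrq on the other strand, had 6 and 3 reads in control and 17 and 5 in Bptf-cKO. Uqcrh, the hinge protein that links cytochrome c1 to cytochrome c (chr4:116066965-116075071, minus strand), went the other way, with 2321 and 2802 in control and 2008 and 2050 in Bptf-cKO (−0.33, SE 0.123, limma adjusted p = 0.296). Uqcrfs1, the Rieske iron-sulfur protein, had 1760 and 1870 against 1750 and 1709 (−0.07), and the core proteins Uqcrc1 and Uqcrc2 overlapped, at 0.09 and 0.04. Uqcr10 had 1108 and 1333 in control and 1407 and 1439 in Bptf-cKO (0.23, limma adjusted p = 0.47). The median over the 8 genes was 0.07, and it was −0.04 without control replicate 1 and −0.03 without Bptf-cKO replicate 2.

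Complex IV, cytochrome c oxidase, reduces oxygen to water. Besides the tissue-restricted forms and Cox7a2l, which joins complexes into supercomplexes, 11 ubiquitous subunit genes were tested. Of these, 8 were above 0, and none passed the test. Cox7b, Cox4i1 and Cox6a1 lay above both controls (3 genes, 27.3%, beside 23.2% of all genes). Ndufa4 lay below both (1 gene, 9.09%, beside 23.8% of all genes). Summed over the 11 genes, normalized counts were 22899 and 24353 in control and 24590 and 24947 in Bptf-cKO, a ratio of 1.05. The groups did not overlap, but the higher control (24353) was close to the lower Bptf-cKO library (24590). Cox7b had 1640 and 1951 against 2158 and 2173 (log2 difference 0.28, limma adjusted p = 0.359). Cox5a and Cox5b, which bind the matrix side of the enzyme, were at 0.15 and 0.05, and Cox6b1 was at 0.0056, a sign that turned under quantile normalization (−0.04) and with GC content and length removed (−0.03). Cox7a2, the counterpart of Cox7a1, had 1216 and 1719 against 1459 and 1946 (0.22, limma adjusted p = 0.701), and Cox8a was at −0.04, or 0.0083 after recentring. Ndufa4, first named as a complex I subunit, had 3256 and 3595 in control and 3161 and 3145 in Bptf-cKO (−0.12, limma adjusted p = 0.629).

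ATP synthase has a catalytic F1 head and a membrane Fo part with the ring of c subunits. Atp5a1 and Atp5b, the alpha and beta subunits of the head, had the highest levels of the members, at 6714 and 5688 normalized counts per kilobase in control and 6707 and 5510 in Bptf-cKO. Atp5a1 had 19508 and 22587 normalized counts in control and 19828 and 22228 in Bptf-cKO, and Atp5b had 22478 and 25718 against 22750 and 23939. Their log2 differences were 0.00019 and −0.04, and the signs of both depended on the scaling (−0.12 for Atp5a1 under quantile normalization and 0.0085 for Atp5b after recentring). Atp5c1, the gamma subunit that turns inside the head, had 4191 and 5042 in control and 5142 and 5624 in Bptf-cKO (0.23, limma adjusted p = 0.461). Among further subunits of the head and its stalks, Atp5d, Atp5e and Atp5o overlapped between the groups, with −0.0058, 0.11 and 0.17. Atp5d was at 0.05 after recentring. Summed over the 16 genes, normalized counts were 68633 and 79582 in control and 71842 and 77765 in Bptf-cKO.

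Atp5s, which encodes the coupling factor B linked to ATP synthase (chr12:69724950-69744660, plus strand), had the lowest log2 difference of the members. It had 375 and 353 normalized counts in control and 270 and 181 in Bptf-cKO, so the groups did not overlap, but −0.72 (SE 0.238) did not pass the test (limma adjusted p = 0.253). The 3 genes for the c subunit, Atp5g1, Atp5g2 and Atp5g3, encode the same mature protein behind different import signals. Atp5g3 had 4524 and 5544 in control and 4609 and 4938 in Bptf-cKO (−0.07) and supplied 97.0% and 96.8% of the summed level of the 3 genes per kilobase in control, against 95.7% and 95.5% in Bptf-cKO. Atp5g1 supplied 2.02% and 2.18% against 2.45% and 3.0%. Atp5g2, which had the lowest level per kilobase of the members in both groups, had 36.4 and 44.4 normalized counts in control and 68.2 and 60.7 in Bptf-cKO (0.67, SE 0.32, limma adjusted p = 0.403). The median over ATP synthase genes was 0.09, and it fell below 0 without control replicate 1 (−0.01) and without Bptf-cKO replicate 2 (−0.0067). Atp5sl, the complex I assembly gene with an ATP synthase symbol, had 1029 and 985 in control and 924 and 958 in Bptf-cKO (−0.10, limma adjusted p = 0.734).

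The mitochondrially encoded subunits of the same complexes had lower means in Bptf-cKO. All 13 were listed and tested, and all 13 had log2 differences below 0, from −0.62 for mt-Nd3 to −0.06, with a median of −0.31. Their levels differed widely. The counts of mt-Nd3 were low, at 61.2 and 38.8 in control and 57.8 and 16.9 in Bptf-cKO. Those of mt-Nd4l were 65.9 and 83.2 against 61.1 and 52.2, and those of mt-Co3 were 500 and 402 against 489 and 380. The reason for the low levels was not tested. None of the 13 passed the test, and 4 (30.8%, beside 23.8% of all genes) lay below both controls. Their summed normalized counts were 343616 and 291350 in control and 303248 and 222787 in Bptf-cKO, so the groups overlapped, and the lowest library was Bptf-cKO replicate 2. Without that library 7 of the 13 were above 0 and the median was 0.0062, and without control replicate 1, 5 of the 13 were above 0. The most abundant, mt-Co1, the catalytic subunit of complex IV, had 103252 and 98213 in control and 87444 and 75076 in Bptf-cKO (−0.31, SE 0.128, limma adjusted p = 0.331). Under quantile normalization 12 of the 13 were below 0.

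**Figure D4:**
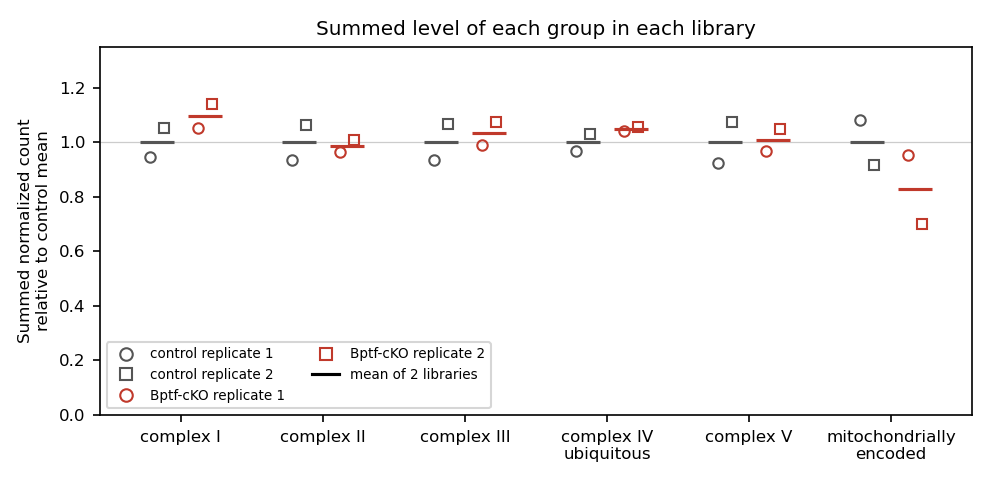
Summed normalized counts of each complex (complex IV by its ubiquitous subunits) in each library, divided by the control mean of that complex, with the mitochondrially encoded subunits beside the nuclear ones. Complex I stood at 0.945 and 1.05 in control and 1.05 and 1.14 in Bptf-cKO, whereas the mitochondrially encoded sum stood at 1.08 and 0.918 in control and 0.955 and 0.702 in Bptf-cKO.

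Other genes of the pathway were described from fixed lists, and none of their genes passed the test. Of 47 tested assembly factors, which build the complexes without staying in them, 36 were above 0 (median 0.08). Above both controls lay 14 (29.8%, beside 23.2% of all genes), and 5 (10.6%, beside 23.8%) lay below. Fmc1, needed to assemble the F1 head, had 414 and 464 normalized counts in control and 790 and 765 in Bptf-cKO (log2 difference 0.83, SE 0.133, limma adjusted p = 0.076). Ecsit, a complex I assembly factor, had 472 and 488 against 718 and 718 (0.58, limma adjusted p = 0.124), and Uqcc2, which acts on complex III, had 803 and 933 against 1180 and 1211 (0.47, limma adjusted p = 0.185). Without control replicate 1, 27 of the 47 were above 0 with a median of 0.05, and the median was 0.13 without control replicate 2 and 0.13 without Bptf-cKO replicate 2.

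Of 18 genes for electron carriers and their synthesis, 16 were above 0. Above both controls lay 5 (27.8%, beside 23.2% of all genes), and 1 (5.56%, beside 23.8%) lay below. The 18 include Cyc1, the cytochrome c1 gene of complex III (log2 difference 0.08). Without control replicate 1, 12 of the 18 were above 0. Cycs, cytochrome c, had 328 and 365 normalized counts in control and 480 and 504 in Bptf-cKO (log2 difference 0.51, limma adjusted p = 0.209). Coq8a, which acts in ubiquinone synthesis, had 944 and 859 against 660 and 535 (−0.60, limma adjusted p = 0.172). Of 14 citrate cycle genes, 12 were above 0, with a median of 0.17, and 8 (57.1%, beside 23.2% of all genes) lay above both controls. Without control replicate 1, 11 were above 0 with a median of 0.10. Cs, citrate synthase, had 4842 and 5595 against 6189 and 6883 (0.33, limma adjusted p = 0.28). Of 77 tested mitochondrial ribosomal protein genes, which are needed to translate the mitochondrially encoded subunits, 60 were above 0, with a median of 0.12. Above both controls lay 35 (45.5%, beside 23.2% of all genes), and 1 (1.3%, beside 23.8%) lay below. Without control replicate 1, 47 were above 0. The median was then 0.06, and it was 0.22 without control replicate 2. The carriers of ADP, ATP and phosphate (Slc25a3, Slc25a4 and Slc25a5) and the ATP synthase inhibitor Atpif1 overlapped between the groups, all 4 with a log2 difference between 0.0081 and 0.14.

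Regulators of mitochondrial genes showed no common direction, with 7 of 12 above 0. Ppargc1a, the coactivator PGC-1alpha, had 45.7 and 81.8 normalized counts in control and 27.3 and 11.3 in Bptf-cKO, so the groups did not overlap (log2 difference −1.74, SE 0.573, limma adjusted p = 0.253). Nrf1, a transcription factor of many subunit genes, had 1422 and 1570 against 1486 and 1740 (0.11), and Tfam, which packages and transcribes mitochondrial DNA, had 1611 and 1859 against 1592 and 1621 (−0.11). Polrmt, the mitochondrial RNA polymerase, had 1141 and 1238 in control and 1425 and 1411 in Bptf-cKO (0.25, limma adjusted p = 0.335).

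What the members share beyond their function was looked for in gene structure and promoters. Their exons span a median of 1675 bp against 4043 bp for all genes tested, with a similar GC content (50.2% and 49.5%), and they lie on 19 chromosomes. At least 100 reads were counted in every library for 77 of the 81, and the lowest count was the 8 reads of Cox6a2. Exons of another gene overlap 29 members, 26 of them on the opposite strand. RefSeq promoter windows (250 bases before to 50 after the start, GRCm38.p6) were found for 68 members. The core TGCGCA of the NRF1 motif, which is its own reverse complement, was held by 18 of them (26.5%), beside 8.79% of all 27025 genes with a window. These 27025 genes were not limited to the genes tested here. The shares therefore do not set the members against other expressed genes. The ETS motif CCGGAAG, on either strand, was held by 16 (23.5% beside 9.93%), and CCAAT, on either strand, by 30 (44.1% beside 41.1%). Median log2 differences of members with and without the motif were 0.08 and 0.08 for the NRF1 core, 0.08 and 0.08 for ETS and 0.10 and 0.07 for CCAAT. The window of Ndufb6, the highest complex I gene, is shown as a member that holds the NRF1 core and the ETS motif, both in capitals (chr4:40279372-40279671, minus strand, 5′ to 3′).
Ndufb6: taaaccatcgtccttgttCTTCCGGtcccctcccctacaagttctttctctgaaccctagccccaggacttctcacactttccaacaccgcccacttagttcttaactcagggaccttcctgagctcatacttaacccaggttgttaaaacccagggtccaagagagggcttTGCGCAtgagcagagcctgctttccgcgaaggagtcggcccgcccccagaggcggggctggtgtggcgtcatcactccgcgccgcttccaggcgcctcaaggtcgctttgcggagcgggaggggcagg
The ETS letters are read here on the reverse strand, as CTTCCGG. A match to these letters is not a measured binding site.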

How the data were processed

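RNA-seq was measured in LSK cells of 2 control and 2 Bptf-cKO pools, grouped by the genotype in the sample labels. The deposited values are a signal made by the authors: gene counts divided by a size factor for each library. Per the submitters' processing notes HISAT2, featureCounts and DESeq2 were used with GRCm38 (mm10), and their versions are not given in the sources used here. The authors also deposited their own comparison (a log2 fold change with its standard error, a score, a p-value and an adjusted p-value), which was not used. Whole reads were recovered for 100% of values at a tolerance of 0.01. The lowest read total of a listed gene was 11.

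The test was limma 3.58.1 (R 4.3.3) on log2(normalized count + 1) for genes averaging 10 or more, fitted with a trend of variance on mean and genotype alone, with two-sided tests and Benjamini-Hochberg adjustment over all 14858 genes, called under 0.05. A fold change on this scale understates the change of low genes. Mean fold changes use normalized counts. Levels per kilobase used the exon union of GENCODE vM21, and 80 members matched by symbol and 1 by a synonym. Alternatives were edgeR 4.0.16 and DESeq2 1.42.0 on the recovered reads (edgeR called 94 genes, 0.633%, and DESeq2 819 of 13993, 5.85%), pseudocounts of 0.5 and 10, no filter, a minimum mean of 50, other scalings, no trend, removal of GC content and length, a replicate block, and leaving out each library. The edgeR fit with a block was added after the data were seen. The fits were tested on simulated data. Depth was 14091054 to 30134742 reads a library, and there were 2 libraries a group. How much counting and how much the spread between libraries limited the precision was not tested.

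The members and lists were chosen with earlier results of these data known. Named genes are called members, the 2 highest and 2 lowest differences in each complex, tissue-restricted isoforms with their counterparts, core subunits and Bptf. Other genes were named after their values were seen. The values of 1 member are not reported here, though it stays in the counts, sums and medians.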

Additional observations from a re-analysis of the deposited data

How the results depend on the processing

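The limma call of Cox6a2 held under most alternatives, with adjusted p between 1.02e-07 and 0.154, and its direction under every one run. Of 764 recomputed differences of 45 single genes, 700 kept direction and side of the threshold, 35 reversed, 19 became significant and 10 lost significance. Over all genes, 110 were called, against 819 in DESeq2, 2 without the trend, and 1 to 117 when 1 library was left out (64 without control replicate 2, 1 without each Bptf-cKO library). Of the members 1 was called, against 3 in DESeq2 (Cox6a2, Cox4i2 with adjusted p = 0.0076 and Uqcrq with 0.00133), 0 without the trend, and 0 to 1 when 1 library was left out. A lone library left in a group is assumed to vary like the other group. The low read counts of Cox6a2 in control limit the precision of its fold change.

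The labels number the replicates alike in both groups but do not say that a number marks a shared batch or litter. Xist was low in both replicate 1 libraries (0.775 and 3.25) and high in both replicate 2 libraries (15675 and 11843). The sex makeup of the pools thus followed the number. The deviations of the replicate 1 libraries from their group means correlated at 0.45 over 14858 genes. With the replicate number as a block, 2138 genes (14.4%) were called, 2120 (14.3%) in edgeR with the block, and 1717 with GC content and length removed beside the block. Members called were then 7, 7 and 6. The 7 in limma were Cox6a2 (adjusted p = 1.02e-07), Cox4i2 (0.000439), Uqcrq (0.0017), Ndufb6 (0.0235) and Ndufv1 (0.0463), all higher, and Atp5s (0.0194) and Uqcrh (0.039), both lower.

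Members above both controls, 26 with all libraries, numbered 30 to 60 when 1 library was left out (37.0% to 74.1%, where 34.1% to 38.3% of all genes did so). Those below both, 7, numbered 11 to 24 (13.6% to 29.6%, where 34.4% to 38.8% of all genes did so), or 3 after recentring on medians (3.7%, and 19.8% of all genes). With fewer libraries, groups overlap less often by construction. The median over all genes, 0.0010, was −0.00083 in edgeR, −0.00015 in DESeq2, 0.0042 with a minimum mean of 50, 0.053 after recentring, 0.017 after quantile normalization and 0.037 with GC content and length removed, with or without the block, and −0.0017 to 0.0058 when 1 library was left out. For complex IV (0.029) it was 0.048 with a minimum mean of 50, 0.081 after recentring, 0.017 after quantile normalization and 0.043 to 0.11 when 1 library was left out, and for complex II (−0.048) −0.15 to 0.071.

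Signs that turned under another scaling were those of Atp5a1 (−0.12 after quantile normalization), Atp5b (0.0085), Cox8a (0.0083) and Sdhd (0.034) after recentring, Atp5d (0.046 after recentring, 0.036 with GC content and length removed, with or without the block) and Cox6b1 (−0.035 after quantile normalization, −0.029 with GC content and length removed, with or without the block). Leaving out 1 library gave log2 differences on both sides of 0 for Atp5a1 (−0.11 to 0.11), Atp5b (−0.14 to 0.054), Atp5d (−0.046 to 0.035), Atp5e (−0.069 to 0.28), Atp5g3 (−0.22 to 0.076), Atp5o (−0.016 to 0.35), Cox5b (−0.015 to 0.11), Cox6b1 (−0.14 to 0.15), Cox7a1 (−0.37 to 0.17), Cox7a2 (−0.029 to 0.47), Cox8a (−0.16 to 0.073), Ndufa12 (−0.22 to 0.038), Ndufs3 (−0.29 to 0.11), Sdhc (−0.25 to 0.034), Sdhd (−0.14 to 0.11), Uqcrc1 (−0.045 to 0.22) and Uqcrc2 (−0.078 to 0.16). The ratio of Cox6b2 to Cox6b1 ran from −0.56 to 0.062 and that of Cox7a1 to Cox7a2 from −0.84 to 0.20. The cause was not tested.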
